A study of Mus musculus with 8 samples.

Results

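The genes described here encode nuclear subunits and assembly factors of the mitochondrial respiratory chain, without complex II, and the measurement is how open their promoters were in alveolar macrophages (AMs). They were taken by symbol, as autosomal protein-coding genes of GENCODE M21 (mm10) whose names start with Nduf, Uqcr, Atp5 or Cox followed by a digit. This gave 95 genes among 20780 autosomal protein-coding genes, and 3 X-linked genes of the same names were left out. A promoter peak was an ATAC-seq peak with its summit within 1000 bases of a transcription start site (TSS). Merged over all libraries, such peaks formed 104 regions out of 82764 in all.

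ATAC-seq marks open chromatin by the cuts of the Tn5 transposase, and here it was run on sorted mature AMs from the bronchoalveolar lavage of C57BL/6J mice aged 9 weeks. The WT group (4 libraries, replicates 1_2, 1_3, 3 and 4) had the genotype CD11cCre- Rxrabfl/fl, and the KO group (4 libraries, replicates 1_2, 1_3, 2 and 3) had CD11cCre+ Rxrabfl/fl. Both groups thus carried floxed alleles of Rxra and Rxrb, the genes of the nuclear receptors RXRα and RXRβ, and Cre under the Cd11c promoter removes them in the KO from any cell that expresses CD11c, AMs and dendritic cells included. The labels do not give the sex behind a library, or whether libraries 1_2 and 1_3 came from a single animal, so p-values below measure the spread between libraries, which may in part be technical.

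Each library had its own peak list, with 60363 to 72484 peaks. Relative depth, read as the genome-wide background in tags (cut ends extended to 200 bp) per 200 bp of genome, ran from 1.12 to 2.26 and did not separate the genotypes (KO mean 1.503 ± 0.320 and WT 1.678 ± 0.393, SD over 4 libraries, with a two-sided p of 0.514 by exact permutation, where 0.0286 is the smallest possible). At Rxra, 12 of 17 merged regions had peaks in all 8 libraries, and 1 region (chromosome 2, 27744546 to 27744950) had a peak in 4 WT and 0 KO libraries. Rxrb had 3 merged regions, of which 1 had peaks in all 8 libraries and 0 had peaks in 4 WT and 0 KO libraries. Peaks do not read exon deletion, so the check of the labels available here rests on that 1 Rxra region. At Xist, 2 of 3 regions had peaks in 4 KO and 0 WT libraries. Sex therefore cannot be told apart from genotype in any comparison of KO with WT below, at autosomal as at X-linked genes. Promoters of 8 of 10 AM marker genes, Siglecf, Pparg, Car4 and Marco among them, had a peak in every library, while the promoters of Chil3 and Krt79 had none in any. Of markers of other cells, 3 to 4 of 6 monocyte or interstitial macrophage genes had a promoter peak in a library, with 3 to 4 in both groups, as had 2 of 5 neutrophil genes, 0 of 6 lymphocyte genes and 3 of 6 epithelial or endothelial genes in all libraries.

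The respiratory chain passes electrons from NADH through complex I, coenzyme Q, complex III, cytochrome c and complex IV to oxygen, and ATP synthase uses the proton gradient this builds. Most subunits are encoded in the nucleus, made in the cytosol and imported, and the remainder are encoded by mitochondrial DNA, which the rule does not cover. Promoters of the nuclear genes are mostly rich in CpG dinucleotides, and the factors NRF1, GABP (an ETS factor), YY1 and the estrogen-related receptors are known to bind many of them. AMs live in contact with surfactant lipid and oxygen and are known for a metabolism that leans on oxidation of fatty acids, which feeds electrons into this chain.

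As examples, and without the weakest open promoters, promoter sequences of 5 of the genes are shown. These sequences belong to 3 general subunits open in all libraries, and to a pair of isoforms of 1 subunit of which 1 was open and the other was not. They run 5′ to 3′ from 250 bases before to 30 bases after the TSS of RefSeq (GRCm38.p6), whose promoter table matched 75 of the 95 genes, and all 5 lie on the minus strand. Cox6a1, the general form of a small complex IV subunit, is at chr5:115348929-115349208, with both stretches of NRF1 letters in capitals. Uqcrfs1, the Rieske iron-sulfur protein of complex III, is at chr13:30545287-30545566, with CREB letters in capitals. Atp5e, the epsilon subunit in the central stalk of ATP synthase, is at chr2:174464072-174464351, with SP/KLF letters and then NFY letters in capitals. Cox8a, the general form of another small complex IV subunit, is at chr19:7217587-7217866, with ETS letters in capitals. Its heart and muscle form Cox8b is at chr7:140900417-140900696, with TATA letters in capitals.
Cox6a1: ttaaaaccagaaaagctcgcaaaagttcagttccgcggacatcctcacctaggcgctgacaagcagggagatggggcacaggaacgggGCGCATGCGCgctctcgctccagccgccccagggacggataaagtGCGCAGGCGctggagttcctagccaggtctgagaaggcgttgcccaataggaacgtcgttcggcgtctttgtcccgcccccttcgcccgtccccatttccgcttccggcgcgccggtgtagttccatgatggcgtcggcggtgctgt
Uqcrfs1: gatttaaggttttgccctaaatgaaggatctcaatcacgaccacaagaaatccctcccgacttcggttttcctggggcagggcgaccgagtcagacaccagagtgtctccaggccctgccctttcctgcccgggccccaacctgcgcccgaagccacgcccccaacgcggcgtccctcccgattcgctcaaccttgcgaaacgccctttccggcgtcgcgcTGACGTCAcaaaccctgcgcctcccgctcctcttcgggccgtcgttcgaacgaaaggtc
Atp5e: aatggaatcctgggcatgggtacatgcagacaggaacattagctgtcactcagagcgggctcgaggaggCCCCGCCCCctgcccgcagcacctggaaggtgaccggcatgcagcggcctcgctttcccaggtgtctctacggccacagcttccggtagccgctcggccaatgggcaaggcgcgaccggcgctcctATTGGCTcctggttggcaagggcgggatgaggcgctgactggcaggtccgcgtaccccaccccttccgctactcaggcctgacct
Cox8a: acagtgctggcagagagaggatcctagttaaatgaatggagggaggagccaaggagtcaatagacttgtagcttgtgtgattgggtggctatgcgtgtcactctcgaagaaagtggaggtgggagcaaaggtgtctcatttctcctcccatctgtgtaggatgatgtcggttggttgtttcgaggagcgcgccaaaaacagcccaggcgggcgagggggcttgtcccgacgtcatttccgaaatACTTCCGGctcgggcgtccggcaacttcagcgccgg
Cox8b: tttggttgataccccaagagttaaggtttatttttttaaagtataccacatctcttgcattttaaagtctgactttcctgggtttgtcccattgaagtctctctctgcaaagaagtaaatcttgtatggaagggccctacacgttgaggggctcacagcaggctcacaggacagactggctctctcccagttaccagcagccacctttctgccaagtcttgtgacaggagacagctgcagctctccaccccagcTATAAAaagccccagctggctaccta
The Cox8a stretch held 17 CpG dinucleotides and the Cox8b stretch held 1, which is 0.835 and 0.0644 of the number their base composition gives. The Cox6a1, Uqcrfs1, Atp5e and Cox8a stretches lie wholly inside an open region of their gene.

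Of the 95 genes, 89 had a promoter peak in all 8 libraries and the other 6 had none in any library. Every library, KO or WT, therefore counted 89 open genes (KO minus WT 0, exact permutation test, two-sided p = 1). Among other autosomal protein-coding genes, 11235 of 20685 (54.3%) had a promoter peak in all 8 libraries. Of cytosolic ribosomal protein genes it was 77 of 80, and of mitochondrial ribosomal protein genes 78 of 78. All 7 core and 27 accessory subunits of complex I, 8 complex III subunits, 10 general complex IV subunits, 17 ATP synthase genes and 17 assembly factors were open in every library. When the summit had to lie within 500 bases of a TSS, 83 genes were open in all libraries, and Atp5f1, Atp5j, Atp5l, Ndufa11, Ndufa13 and Ndufs4 dropped out in at least 1 library.

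The 6 genes without a promoter peak were tissue isoforms or relatives of complex IV subunits: Cox4i2 (lung and hypoxia), Cox6a2 and Cox8b (heart and skeletal muscle), Cox7b2 and Cox8c (testis) and Ndufa4l2 (hypoxia). The nearest summit in any library was 1.58 kb from the TSS of Cox4i2, 1.45 kb from Cox6a2 and 1.95 kb from Ndufa4l2, and all 8 libraries had a summit within 5 kb of each. It was 8.25 kb away for Cox8b, 20.8 kb for Cox8c and 613 kb for Cox7b2. Cox4i2 had peaks inside the gene in 8 libraries, and the other 5 genes had none there. A missing peak shows only that the q-value threshold of the peak caller was not reached.

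Their general counterparts Cox4i1, Cox6a1, Cox8a and Ndufa4 were open in every library (the counterpart of Cox7b2 is X-linked). Isoform pairs did not all divide this way. Cox7a1, the heart and muscle form, and Cox6b2, the testis form, had promoter peaks in all 8 libraries, as had their general partners Cox7a2 and Cox6b1. Cox7a1 was among the strongest of all the genes and Cox6b2 was the weakest. Atp5g1, Atp5g2 and Atp5g3, which encode the same ring protein of ATP synthase, were open in all 8 libraries, with mean strength percentiles of 88.1, 77.4 and 82.0.

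Strength was read as the percentile of a peak's fold enrichment within its own library's list, taking the strongest promoter peak of each gene. The median over open respiratory chain genes was 85.2, 86.2, 83.8 and 84.1 in the WT libraries 1_2, 1_3, 3 and 4, and 85.9, 86.5, 86.7 and 86.0 in the KO libraries 1_2, 1_3, 2 and 3. Over other open protein-coding genes it lay between 76.5 and 78.8. In every library the respiratory chain median was above the median of other genes, by 7.29 to 8.89 percentiles (mean 8.05 ± 0.63, SD, n = 8). On average 72.9% of the genes were at or above the 75th percentile of a library's list, against 54.2% of other open genes. The medians of cytosolic ribosomal protein genes (83.6 to 86.8) and mitochondrial ribosomal protein genes (83.7 to 88.1) overlapped that range. The size of the gap depended on the measure: it was 2.97 percentiles with the −log10 q-value and 1.87 with the tags at the summit, and it stayed above 0 in all 8 libraries with each.

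**Figure D1:**
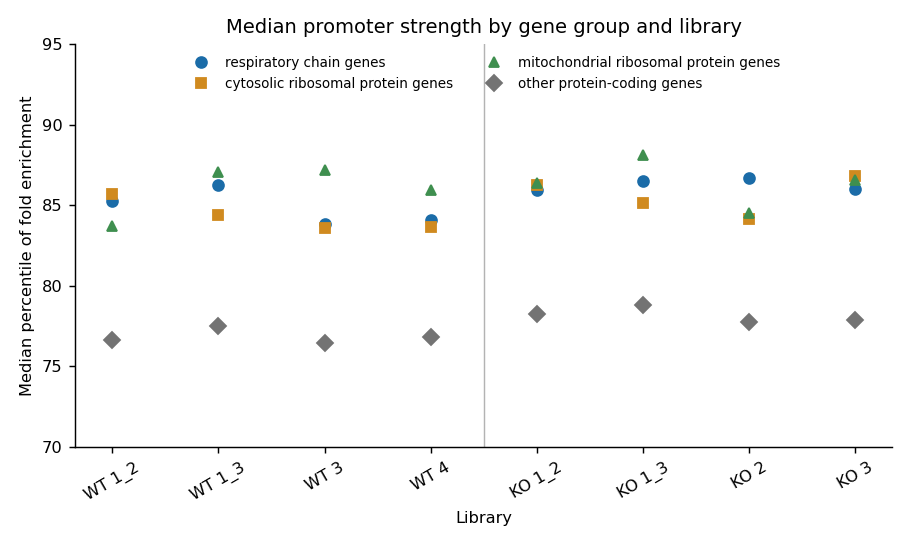
The median percentile of fold enrichment (vertical axis, from 70 to 95) is plotted for each of the 8 libraries (horizontal axis) and 4 gene groups. Respiratory chain genes (circles) lie between 83.8 and 86.7, beside both ribosomal groups (squares and triangles) and above other protein-coding genes (diamonds, 76.5 to 78.8) in every library.

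The members spread widely around that median. The 5 strongest were Atp5e (mean percentile 99.96 over 8 libraries), Ndufab1 (99.4), the mitochondrial acyl carrier protein, Ndufa6 (99.2), a complex I accessory subunit, Cox7a1 (98.4) and Cox7c (98.2), a small complex IV subunit. Atp5e was at the 99.9th percentile or above in all 8 libraries. The 5 weakest were Cox6b2 (12.5), Ndufb10 (13.5), a complex I accessory subunit, Cox6c (33.0) and Cox4i1 (52.2), both of complex IV, and Ndufaf1 (54.5), a complex I assembly factor. The fold is taken over the local background, and by summit tags the order of these weak promoters changed: Ndufb10 was at the 50.1st percentile and Cox4i1 at the 72.7th, against 37.5 for Cox6b2, 28.8 for Ndufaf1 and 28.0 for Cox6c. Cox6b2 ranged from 3.84 to 17.4 in the WT libraries and from 7.39 to 21.9 in the KO libraries. Ndufb10 ranged from 3.53 to 17.7 in the WT and from 8.89 to 19.95 in the KO, and the 2 genes' ranges overlapped.

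Catalytic and core subunits also differed among themselves. Ndufv1, which binds NADH and the flavin in complex I, was at a mean percentile of 97.8, and Ndufs1, an iron-sulfur subunit of the same arm, was at 56.6. In complex III, Uqcrfs1 was at 85.0 and the core protein Uqcrc1 at 76.3. In complex IV, Cox5a was at 73.1 and Cox4i1 at 52.2. In ATP synthase, the catalytic beta subunit Atp5b was at 94.3 and the alpha subunit Atp5a1 at 72.9. By role, the median of the mean percentiles was 87.3 over complex I core subunits, 88.5 over complex I accessory subunits, 83.0 over complex III subunits, 84.7 over general complex IV subunits and 93.1 over the 5 F1 subunits of ATP synthase. It was 84.4 over the 17 assembly factors, with a range from 54.5 to 97.8 that lay within that of the subunits (13.5 to 99.96).

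**Figure D2:**
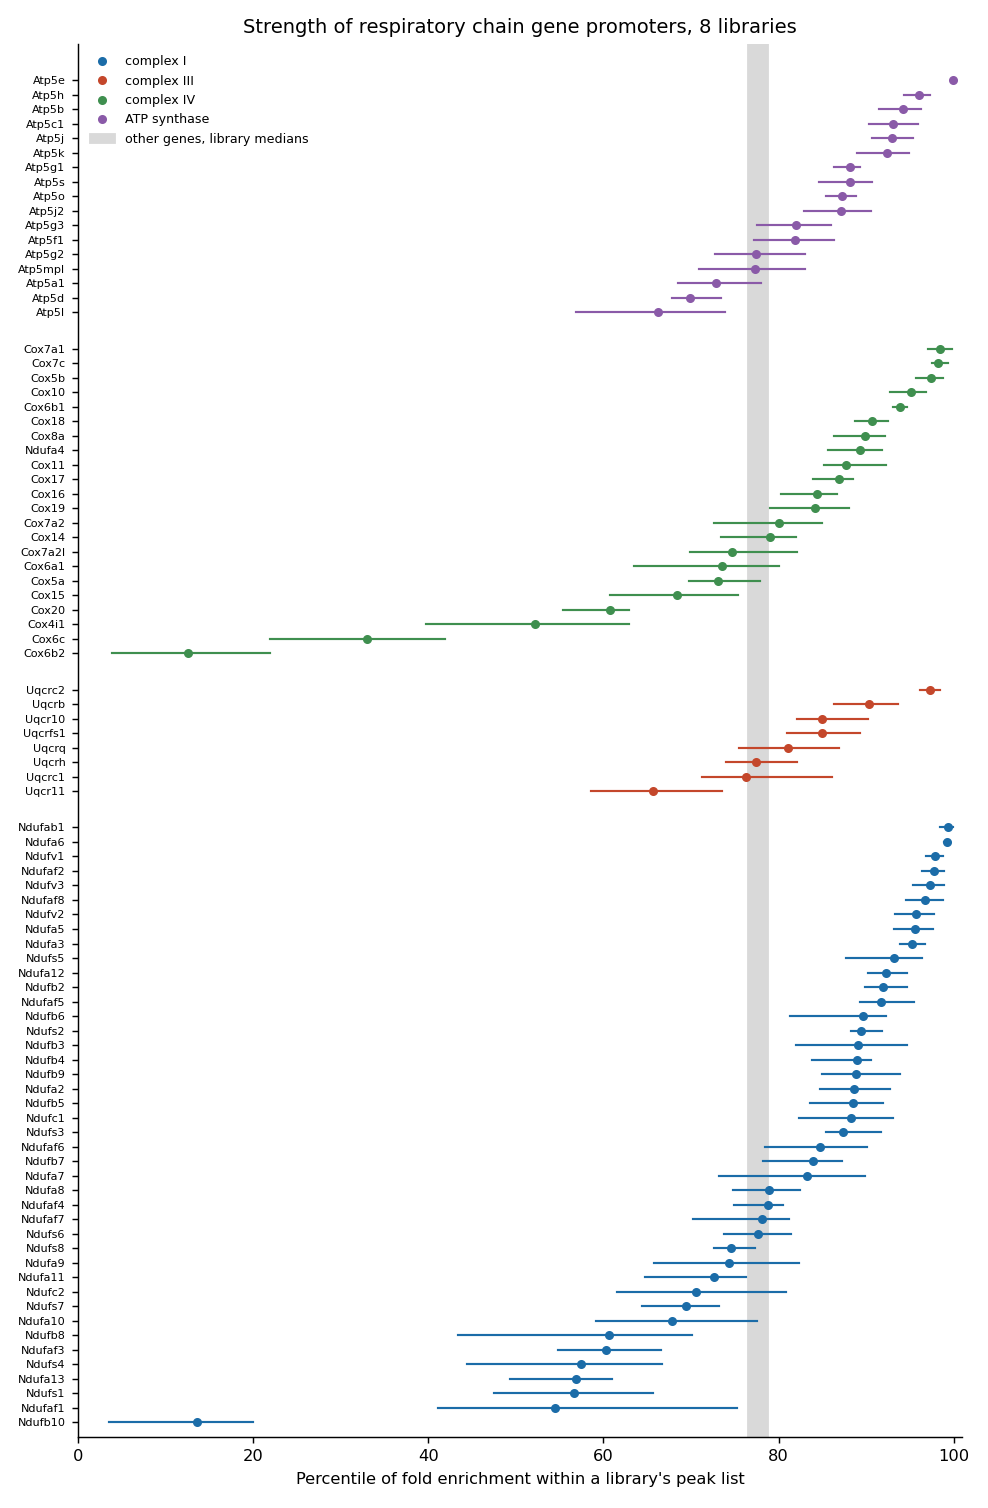
Each of the 89 open genes is a point at its mean percentile of fold enrichment (horizontal axis, 0 to 100), with a line from its lowest to its highest library, grouped by complex. Most points lie to the right of the grey band, which spans the library medians of other genes (76.5 to 78.8), and Cox6b2, Ndufb10 and Cox6c lie far to its left.

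The open promoters were also compared with those of other genes for position and sequence. By definition a promoter peak already had its summit within 1000 bases of a TSS, in respiratory chain and other genes alike. The strongest summit lay within 100 bases of a TSS in 70 of 89 genes (78.7%), against 60.0% of other open genes, 79.2% of cytosolic and 74.4% of mitochondrial ribosomal protein genes. The median distance was 33 bases, against 70 over other open genes. The summit was upstream of the annotated gene in 51 genes, in an untranslated part of an exon in 33 and in an intron in 5. For 29 of the 89 genes (32.6%) the strongest peak was also a promoter peak of another protein-coding gene, against 17.97% of other open genes, 42.3% of mitochondrial ribosomal protein genes and 18.2% of cytosolic ones. Atp5j shared its region with Gabpa, which encodes the DNA-binding part of GABP, Ndufb5 with Mrpl47, and Ndufs1 with Eef1b2. At a shared region the openness cannot be assigned to either gene.

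The CpG content within 100 bases of the summit, as observed over expected, had a median of 0.838 over the 98 regions present in every library's list, against 0.788 over 11718 other protein-coding promoter regions, although the GC share was lower (62.4% against 64.7%). It was under 0.6 at 8 of the 98 regions, Cox7a1 (0.359) among them. The letters GCGCANGCG of NRF1 were found on either strand in 20 of 98 regions (20.4%), against 8.87% of other promoter regions, and AAGATGGCG of YY1 in 9 (9.18% against 2.30%). CCGGAAGT of ETS factors was found in 10 (10.2% against 7.11%). GGGGCGGGG of SP/KLF factors was the reverse, with 7 regions (7.14%) against 17.5%, and so was the E-box CACGTG (4 regions, 4.08% against 7.77%). AGCCAAT of NFY (11.2% against 9.87%), TGACGTCA of CREB (4.08% against 2.86%) and TATAAA (3.06% against 2.64%) differed less. Over all these promoter regions together the shares were 8.96% for NRF1, 2.36% for YY1, 7.13% for ETS and 17.4% for SP/KLF.

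**Figure D3:**
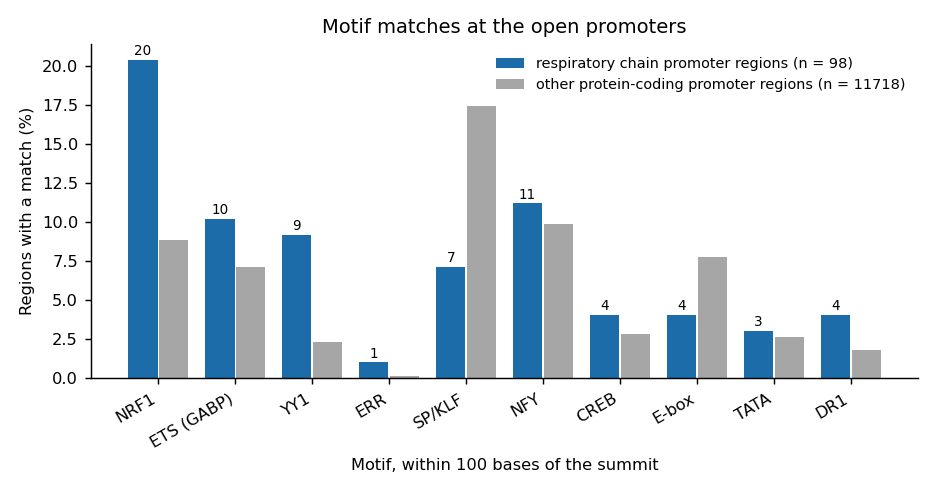
Bars give the share of regions (vertical axis, percent, from 0) with at least 1 match to each of 10 motifs within 100 bases of the summit, for 98 respiratory chain regions (blue, with the number of regions above the bar) and 11718 other protein-coding promoter regions (grey). NRF1 and YY1 letters were more frequent in the respiratory chain regions (20.4% and 9.18%), and SP/KLF and E-box letters were less frequent (7.14% and 4.08%).

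The NRF1 regions belonged to genes of all 4 complexes, among them Cox6a1 (whose promoter is printed above), Uqcrc1, Cox6c, Ndufb10, Atp5d and Atp5g3. The YY1 regions belonged to Atp5j, Atp5j2, Cox10, Ndufa9, Ndufc1, Ndufs4, Ndufs6, Ndufs7 and Uqcrc1, so Ndufs6 and Uqcrc1 had both. The estrogen-related receptor letters TCAAGGTCA were found in 1 region (Atp5g3; 1.02% against 0.128%). For RXR itself, 2 copies of AGGTCA in the same direction with 1 base between them (DR1, up to 2 mismatches) were found in 4 regions, those of Atp5mpl, Ndufa12, Ndufs6 and Ndufv1 (4.08% against 1.81% of other promoter regions).A match is a description of the letters and not a bound site.

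KO and WT were compared at the 98 regions present in every library's list, on log2(summit tags + 0.5) with each library centred on its median over 47339 tested regions. The tags at a summit were solved for from a peak's fold together with its −log10 p-value. The limma fit called 5 of 98 regions (5.10%) higher in KO and 0 lower, with Benjamini-Hochberg adjusted p under 0.05 over all tested regions. Of other protein-coding promoter regions, 6.84% were called higher and 2.44% lower, and of all tested regions 5.81% were called higher and 7.05% lower. The share of respiratory chain regions called higher was thus close to the background. At an unadjusted p under 0.05 the count was 26 higher (26.5%) and 0 lower, against 19.4% higher and 4.48% lower of other protein-coding promoter regions.

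The call of lowest adjusted p was at Uqcrq, which encodes a small ubiquinone-binding subunit of complex III (chromosome 11, 53430240 to 53431353). Its summit held 205, 249, 209 and 187 tags in the WT libraries 1_2, 1_3, 3 and 4, and 261, 236, 240 and 171 in the KO libraries 1_2, 1_3, 2 and 3. After centring, KO replicate 3 (1.58) lay within the WT range of 1.45 to 1.63 and the other 3 KO libraries lay above it. The difference was 0.30 ± 0.09 (SE, log2, limma adjusted p = 0.0189). Uqcrfs1 (chromosome 13, 30544928 to 30545593), the Rieske protein whose promoter is printed above, had 157, 216, 186 and 124 WT tags and 182, 188, 165 and 157 KO tags. All 4 centred KO values (1.41 to 1.48) were above the WT values (1.04 to 1.32), with a difference of 0.26 ± 0.09 (SE, adjusted p = 0.0497).

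Of complex IV, Cox6a1 was called (chromosome 5, 115348631 to 115349294). Its region held 53, 85, 70 and 68 WT tags and 75, 86, 65 and 87 KO tags. Centred values ran from −0.40 to 0.18 in WT and from 0.11 to 0.61 in KO, so the groups overlapped, and the difference was 0.40 ± 0.14 (SE, log2, limma adjusted p = 0.0413). The 2 other calls were assembly factors of complex I. Ndufaf7, a methyltransferase that modifies a core subunit during assembly, shares its region (chromosome 17, 78936873 to 78937361) with Cebpz. It held 193, 258, 227 and 161 WT tags and 222, 219, 199 and 210 KO tags, with all centred KO values above the WT values (difference 0.25 ± 0.09, SE, adjusted p = 0.0404). Ndufaf2, a relative of a complex I subunit that serves in late assembly, shares its region (chromosome 13, 108158134 to 108159104) with Ercc8. It held 254, 338, 261 and 187 WT tags and 279, 264, 261 and 233 KO tags, again without overlap after centring (difference 0.24 ± 0.08, SE, adjusted p = 0.0456).

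**Figure D4:**
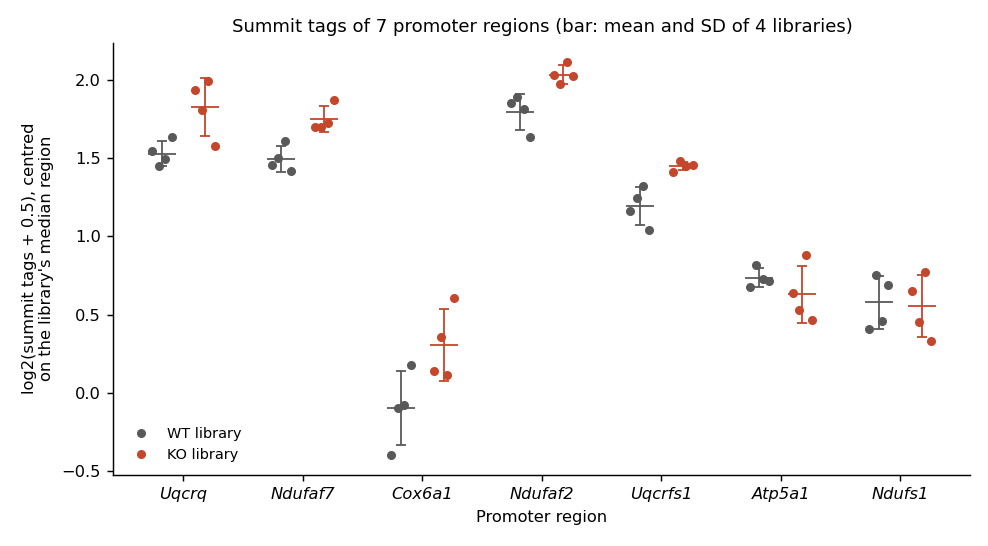
Points are single libraries (WT grey, KO red) and bars the mean and SD of 4, for log2(summit tags + 0.5) centred on the library's median region (vertical axis), at the 5 called regions and at Atp5a1 and Ndufs1. KO and WT points do not overlap at Ndufaf7, Ndufaf2 and Uqcrfs1, overlap in part at Uqcrq and Cox6a1, and lie over each other at Atp5a1 and Ndufs1.

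These calls rested on the scaling. No respiratory chain region was called when libraries were scaled by background depth or by the median of promoter regions, and quantile normalization called 2, Cox6a1 and Uqcrq. Calls fell among other protein-coding promoter regions too. There 0.43%, 1.99% and 4.53% were called higher with these 3 scalings, against 6.84% in the main fit. Uqcrq was called in 10 of 18 alternative settings, Cox6a1 in 9, Ndufaf7 and Ndufaf2 in 5 each, and Uqcrfs1 in 3, while no region was called lower in any of them. Leaving out WT replicate 1_2, 1_3, 3 or 4 gave 2, 3, 3 and 11 calls, and leaving out KO replicate 1_2, 1_3, 2 or 3 gave 1, 2, 3 and 1. Of other promoter regions, 4.77%, 4.57%, 3.85% and 9.24% were called higher without these WT libraries. Without these KO libraries it was 3.34%, 4.91%, 4.49% and 3.83%.

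Beyond the calls, most differences were positive. The difference was above 0 at 87 of 98 regions, and its median was 0.13 (log2), against 0.09 over other protein-coding promoter regions, of which 73.8% were above 0, and 0.04 over all tested regions. Centred on the promoter regions in place of all regions, the median was 0.04 and 63 of 98 differences were above 0. The median of the respiratory chain regions was above 0 in all 18 alternative settings, from 0.04 to 0.15. The median of other promoter regions was also above 0 in all 18, from 0.005 to 0.106. All 4 KO libraries lay above all 4 WT libraries at 8 regions, those of Atp5h, Atp5j, Cox17, Ndufaf2, Ndufaf7, Ndufb7, Uqcrfs1 and Uqcrh (8.16%), and all below at 0. Among other promoter regions the shares were 11% above and 2.94% below. Median differences were 0.12 over cytosolic ribosomal protein promoters, with 2 of 81 regions called higher and 0 lower, and 0.14 over mitochondrial ones, with 4 of 84 called higher and 0 lower.

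By role, the median difference was 0.08 over complex I core subunits, 0.15 over complex I accessory subunits, 0.15 over complex III subunits, 0.09 over general complex IV subunits and 0.06 over F1 subunits of ATP synthase. It was 0.13 over the 20 regions of assembly factors, 2 of them called. None of the 28 regions of complex I accessory subunits or the 19 regions of ATP synthase genes was called. Among other protein-coding promoter regions 6.84% were called higher and 2.44% lower, so counts this small do not set the roles apart. Where the CpG content was at least 0.6 of expectation, the median was 0.14 over 90 respiratory chain regions and 0.11 over 8554 other promoter regions. Regions with NRF1 letters had a median of 0.15 and those without 0.12.

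**Figure D5:**
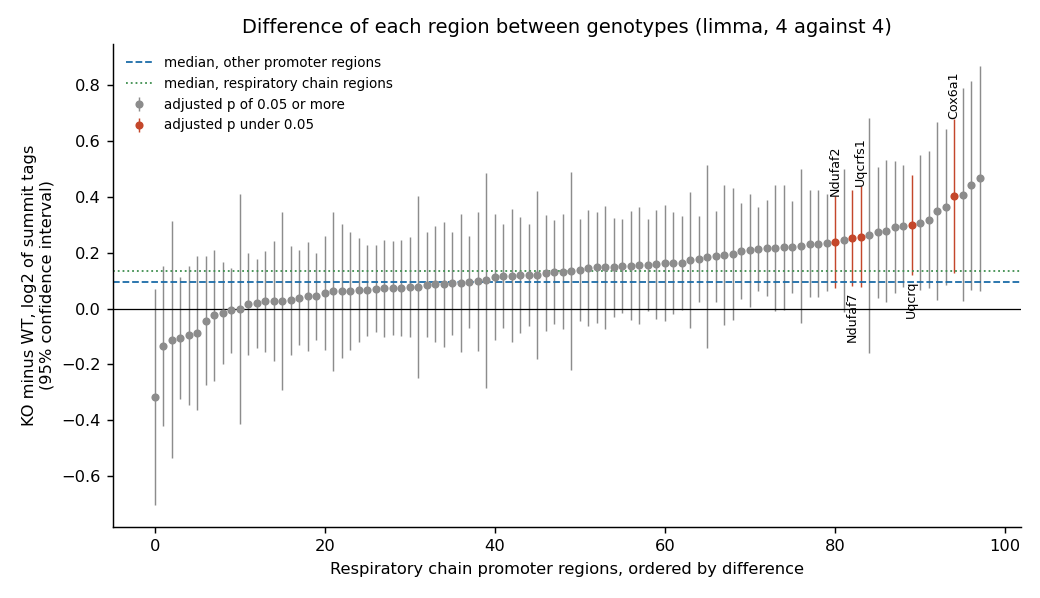
Each of the 98 regions is a point at its KO minus WT difference (vertical axis, log2 of summit tags, with the 95% confidence interval), ordered from lowest to highest (horizontal axis). The 5 called regions are red and named, 87 of the points lie above 0, and the dashed and dotted lines are the medians of other promoter regions (0.09) and of respiratory chain regions (0.13).

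The largest differences had wide errors. A second region of Ndufaf6, an assembly factor of complex I, with its summit 904 bases upstream of the TSS,, differed by 0.47 ± 0.20 (SE, log2, limma adjusted p = 0.119) with 24 to 29 WT tags and 20 to 46 KO tags. Ndufb8, an accessory subunit of complex I, differed by 0.44 ± 0.19 (adjusted p = 0.111), and Cox6b2 by 0.41 ± 0.19 (adjusted p = 0.157), with 27 to 33 WT tags and 27 to 40 KO tags. The lowest values were −0.32 ± 0.19 at a region 872 bases upstream of the TSS of Uqcr11, a small complex III subunit (adjusted p = 0.302), −0.13 ± 0.14 at Atp5l, a membrane subunit of ATP synthase, −0.11 ± 0.21 at 1 of 2 Cox6c regions and −0.11 ± 0.11 at Atp5a1. None of these passed the test.

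The core subunits gave further values below the threshold. Uqcrc1 differed by 0.36 ± 0.14 (SE, log2, limma adjusted p = 0.0765), with 54, 75, 57 and 55 WT tags and 79, 60, 74 and 55 KO tags. Cox4i1 differed by 0.27 ± 0.12 (adjusted p = 0.116), Cox5a by 0.23 ± 0.10 (adjusted p = 0.0999) and Atp5b by 0.18 ± 0.08 (adjusted p = 0.121). Ndufv1 differed by 0.08 with a 95% confidence interval of −0.10 to 0.27, Ndufs1 by −0.02 with an interval of −0.26 to 0.21, and Atp5a1 had an interval of −0.32 to 0.11. Of the isoform pairs, Cox7a1 differed by 0.15 ± 0.09 and Cox7a2 by 0.22 ± 0.08, Cox6b1 by 0.09 ± 0.11, Cox8a by 0.02 ± 0.09 and Ndufa4 by 0.04 ± 0.08, none of them called. Atp5g1, Atp5g2 and Atp5g3 differed by 0.07 ± 0.08, 0.13 ± 0.10 and 0.03 ± 0.11.

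Further genes of the chain or related to it, which the symbol rule did not take, were read from a list of 48. It covered complex II, electron carriers and coenzyme Q synthesis, mitochondrial gene regulators and the citric acid cycle, and 44 of the genes had a tested region. Of their 47 regions 4 (8.51%) were called higher in KO and 0 lower, beside 6.84% higher among other protein-coding promoter regions, and the median difference was 0.12 beside 0.09 there. The Gabpa region, not called in the main fit, is the one it shares with Atp5j and was also counted among the respiratory chain regions. Suclg2, a subunit of succinate-CoA ligase in the citric acid cycle, differed by 0.40 ± 0.12 (SE, log2, limma adjusted p = 0.0192). Pdss2, which makes the side chain of coenzyme Q, differed by 0.31 ± 0.10 (adjusted p = 0.0333), Esrra, which encodes an estrogen-related receptor, by 0.28 ± 0.10 (adjusted p = 0.0457), and Tfb2m, a transcription factor of mitochondrial DNA, by 0.24 ± 0.08 (adjusted p = 0.0408). None of the 7 complex II regions was called. The count over all 47 regions was 0 with background depth scaling and with promoter-median scaling, where 0.43% and 1.99% of other promoter regions were called higher.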

How the data were processed

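ATAC-seq peak lists of 8 libraries (4 WT, 4 KO, grouped by sample title) were used. Per the study's methods, the authors used Cutadapt to trim reads and Bowtie2 to align them to mm10, dropped duplicates and reads of low mapping quality, and called peaks per library with MACS3 at a q-value of 0.05 on cut ends extended to 200 bp. Each deposited list gives, per peak, a fold (the authors' ratio of summit pileup to local background, 1 added to each), the −log10 p-value and −log10 q-value deposited by the authors, and the summit. A strong neighbourhood lowers the fold, and a deeper library reaches the threshold with a smaller enrichment. Read counts per region are not in the lists, so the authors' edgeR test was not refitted.

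Whole summit tags were recovered from fold and −log10 p-value for 100% of peaks (relative error under 1e-05). Such tags compare libraries only after scaling. Gene models were GENCODE M21 (basic set). Peaks were assigned to respiratory chain promoters, other protein-coding promoters or neither, and merged within each class where they shared a base. Regions with a peak in all 8 libraries (47339) were tested with limma 3.58.1 in R 4.3.3 (log2 of tags + 0.5, median centred, trended prior variance, Benjamini-Hochberg adjustment), which was first tested on simulated tags. Counts per library were compared by exact permutation. Motifs and CpG content were read from the GRCm38 genome. Python 3.11.15, NumPy 2.4.6, pandas 2.3.3 and matplotlib 3.10.9 were used.

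The genes, lists and tests were chosen with earlier results of these data known. The text names called genes, the 5 strongest and 5 weakest, those without a peak, isoform pairs, the 4 largest rises and falls, and 8 core subunits, and genes given as examples of shared regions, motifs or non-overlap were chosen after their values were seen. Alternatives were other scalings, the fold as deposited, a pseudocount of 1, peaks in at least 3 libraries of each genotype, −log10 q-value of at least 5, overlap of 100 bases, a replicate block, replicates 1_2 and 1_3 averaged, summits within 500 bases of a TSS, TSSs of protein-coding transcripts only, lists cut to equal length, and leaving out each library.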

Additional observations from a re-analysis of the deposited data

Results flagged for a closer look

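In 3 of 78 sets of 4 libraries examined, a single library lay apart from the other 3 by more than Dixon's 95% limit, and chance gives about 1 in 20. At Ndufa6 the centred log2 tags of WT replicate 4 were 2.04, against 1.79 to 1.82 in the other WT libraries. At the upstream region of Ndufaf6, WT replicate 1_3 was at −1.68, against −1.34 to −1.30. At Ndufaf7, KO replicate 3 was at 1.87, against 1.72 or less in the other KO libraries, and the adjusted p without that library was above 0.05.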

How the results depend on the processing

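The number of respiratory chain regions called (5, all higher in KO) was 0 with background depth scaling, 0 with promoter-median scaling, 0 with log2 fold as deposited, 2 with quantile normalization, 2 with −log10 q-value of at least 5 and 2 with replicates 1_2 and 1_3 averaged. Of other promoter regions, 0.43%, 1.99%, 0.84%, 4.53%, 5.64% and 4.79% were called higher under these settings, in the same order. The respiratory chain count was 4 (4.08%) with a pseudocount of 1, 4 (4%) with at least 3 libraries per genotype and 5 (5.10%) with an overlap of 100 bases. Of other promoter regions, 6.82%, 6.36% and 6.81% were called higher there, in the same order. Leaving out 1 library gave 1 to 11 calls among the respiratory chain regions. Without 1 library, 3.34% to 9.24% of other promoter regions were called higher. The median difference of the respiratory chain regions (0.133) was 0.0778 with depth scaling, 0.0437 with promoter-median scaling and 0.0902 with the fold. Over other promoter regions it was 0.0391, 0.00505 and 0.0733 there. Under the same settings the 4 calls among related genes, an alternative set added after the data had been seen, became 0, 0, 0, 1, 2 and 2, and 1 to 7 without 1 library. The replicate block gave 13 calls among the respiratory chain regions (13.3%, beside 11.2% of other promoter regions called higher in the same fit). Of the 5 main calls it kept Cox6a1 and Uqcrq and lost Ndufaf2, Ndufaf7 and Uqcrfs1. Among the 47 regions of related genes it gave 12 calls. The region that Atp5j shares with Gabpa was among the 13 and also belongs to those 47. Same-named libraries (replicates 1_2, 1_3 and 3) had deviations correlated at 0.06, 0.12 and 0.04. Each of these WT libraries correlated best with the KO library of its own name. Whether same-named libraries share a batch or a pairing was not tested, and the main fit did not use one. The strength gap of 8.05 percentiles was 2.97 by −log10 q-value and 1.87 by summit tags (0.23 to 3.06 over libraries). It moved by less than its spread between libraries under the other settings. The KO minus WT difference in open genes was 0 under all settings tried except summits within 500 bases of a TSS, where it was −0.25 genes (exact permutation p = 1). The difference in TATA letters reversed to −0.30 percentage points in the window from 250 bases before to 50 after the TSS, and no other motif or base content did. For the named regions, 559 of the values under alternatives kept their side of the threshold, 58 lost a call and 12 gained one. The sign changed in 36 of all 629 values, at 13 regions, and in none of these was the difference called in either fit. The causes were not tested. Weak regions had few tags: the upstream Ndufaf6 region held 24 to 29 in WT and 20 to 46 in KO, and its difference of 0.47 had an SE of 0.20.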

Other observations

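Of the 104 respiratory chain regions, 6 did not have a peak in every library and were not tested. They were secondary regions of Cox19 (6 libraries), Cox20 (1 library), Cox6b2 (2 and 5 libraries), Cox8a (5 libraries) and Ndufb8 (7 libraries), and each of these genes had another region open in all 8. In all, 76 genes had a single promoter region and 13 had more than 1. The regions of Ndufb10 and Cox4i1 were among the weakest by fold enrichment and in the middle or upper part of the list by summit tags (percentiles 13.5 and 50.1 for Ndufb10, 52.2 and 72.7 for Cox4i1), and whether their neighbourhoods set this was not tested.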
